A study of Mus musculus with 8 samples.

Results

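The signal recognition particle (SRP), its receptor and the Sec61 translocon bring new secretory and membrane proteins into the endoplasmic reticulum (ER). Their transcripts were examined in fetal hearts of C57BL/6J mice with and without the deiodinase that *Dio3* encodes, which inactivates thyroid hormones. The genes described are 10 of the 26590 gene symbols in the deposited table: *Srpr* and *Srprb* for the SRP receptor, *Srp9*, *Srp14*, *Srp19*, *Srp54a*, *Srp68* and *Srp72* for the particle, and *Sec61a1* and *Sec61b* for the channel. They fill 16 of its 51414 transcript rows. Each gene is represented by the row chosen by its measured level, the one with the highest average of both genotype means, and its other rows were checked beside it. The genes share a role in 1 pathway. *Srpr* is also among the genes that the study listed from these same hearts. The fold change listed there equals the ratio of the genotype means of its lower row, described below, and not that of its highest row. The values of *Srpr* here are therefore not independent evidence.

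Total RNA depleted of ribosomal RNA was sequenced from 4 single *Dio3+/+* hearts and 4 single *Dio3-/-* hearts, described as male. The *Dio3-/-* mice lacked the deiodinase constitutively, in every tissue, so that the heart was not the only organ without it. The titles place every heart at E13.5, counted in embryonic days,, whereas the age field gives E18.5 for 2 of the 4 *Dio3-/-* hearts and E13.5 for the rest, and the methods of the study name a later day than its results. If the age field is right, the *Dio3-/-* means pool hearts of different ages, and the pooled table does not let the hearts be compared at 1 age. The table holds 1 mean and 1 coefficient of variation (CV, the SD divided by the mean) for each genotype and row, in RPKM (reads per kilobase of transcript, scaled to the reads of the library), and no value for a single heart. All errors below are SDs computed as mean times CV, with n = 4. The methods of the study state a range of aligned reads over its samples, and also an average of mapped reads that lies below that range. The table holds no counts, so the depth of each single heart is not given beyond these statements. Whether the libraries kept the strand of the RNA is not given in the sources used here.

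As background, SRP binds the signal sequence of a nascent chain as it leaves the ribosome, slows elongation, and docks at the SRP receptor in the ER membrane. The receptor hands the ribosome to the Sec61 channel, through which the chain is threaded or from which it is released sideways into the membrane. In a heart this route makes the receptors, ion channels and matrix proteins of the tissue.

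None of the 10 genes passed the test between the genotypes by its highest row. limma was rebuilt from the deposited means and CVs on the log2(RPKM + 0.5) scale, with Benjamini-Hochberg adjustment over 32703 rows. By that test 0 of 10 genes passed an adjusted p of 0.05, against 336 of all 14657 genes tested (2.29%). At an unadjusted p of 0.05 the count was also 0 of 10, by limma and by the alternative with unmoderated variances, against 19.7% of all genes by limma and 16.3% by the alternative. The log2 fold change (*Dio3-/-* over *Dio3+/+*) was above 0 in 7 genes and below 0 in 3, and 63.3% of all genes lay above 0. The median was 0.06 for the 10 genes and 0.04 for all genes. A p that misses the threshold does not show equality, but the 95% intervals bound the differences: none reached below -0.38 or above 0.27, that is, *Dio3-/-* to *Dio3+/+* ratios of 0.771 to 1.21.

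**Figure D1:**
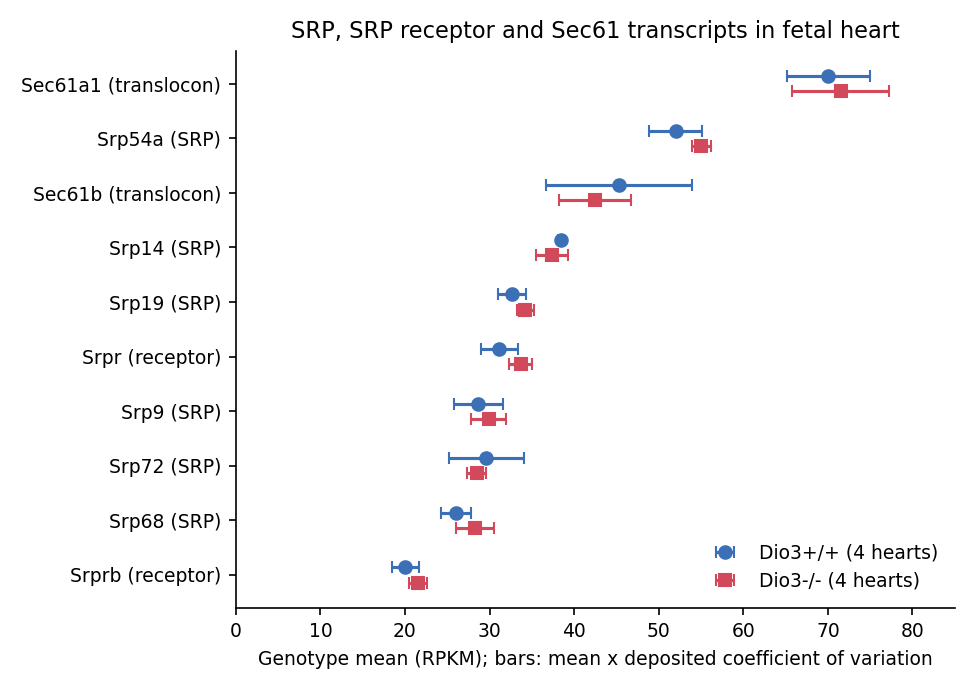
Mean RPKM of the highest row of each of the 10 genes in *Dio3+/+* and *Dio3-/-* hearts (4 hearts each), with bars of 1 SD computed as the mean times the deposited CV. The SD ranges of the genotypes overlap in 10 of 10 genes. The share over all genes was not computed, and overlap of SD ranges is not a test. *Sec61a1* is the highest in both genotypes.

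The sequences bear on which of these rows can stand for 1 gene. *Srp54a* encodes the GTPase subunit of SRP that holds the signal sequence, and the mouse genome has *Srp54b* and *Srp54c* beside it on chromosome 12. In the GENCODE M21 annotation of GRCm38 the 1512 coding bases of *Srp54a* and *Srp54b* are identical, and those of *Srp54c* differ from them at 6 positions (99.6% identity). The stretch with the most differences, coding bases 906 to 965, is shown to make plain how little separates the copies, with the 3 differing positions in capitals:

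Srp54a and Srp54b: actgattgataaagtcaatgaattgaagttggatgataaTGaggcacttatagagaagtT

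Srp54c: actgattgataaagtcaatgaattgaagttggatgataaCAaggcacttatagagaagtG

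A read of 75 bases, the length sequenced here, that lies within the *Srp54a* coding sequence has no letter that assigns it to *Srp54a* over *Srp54b*. Of all 75-base windows of the *Srp54a* transcript, 73.3% occur in transcripts of another gene, and 100% of those within the coding sequence do. The same comparison gave 13.8% of windows for *Srp9* (97.3% of its coding windows, all shared with the predicted gene *Gm13736*), 23.9% for *Sec61b* (54.7% of its coding windows, with predicted genes) and 11.3% for *Srpr* (17.9% of its coding windows, with *Gm6733* and *Gm7593*). No such window was found for the other 6 genes. The study kept only reads that mapped to 1 place. Reads from a window that stands at more than 1 place in the genome would then be left out, and whether the RPKM of these rows allows for that is not given in the sources used here. The levels of *Srp54a*, *Srp9*, *Sec61b* and *Srpr* are uncertain to that extent.

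Upstream sequence was looked at for letters of thyroid hormone and ER stress elements. Loss of the deiodinase alters thyroid hormone, and the ER stress response acts on the same pathway. RefSeq promoters (GRCm38.p6, 250 bases before to 50 after the start) were at hand for 7 of the 10 genes, missing *Srp19*, *Srp68* and *Sec61a1*. The promoter of *Srpr* is shown because it is the only gene with a row that passed the test described below, and that of *Srp54a* because it is 1 of 2 with the half-site AGGTCA of nuclear receptors. Capitals mark AGGTCA, and ATTGG, which is CCAAT read from the opposite strand:

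Srpr, chr9:35210953-35211252, plus strand: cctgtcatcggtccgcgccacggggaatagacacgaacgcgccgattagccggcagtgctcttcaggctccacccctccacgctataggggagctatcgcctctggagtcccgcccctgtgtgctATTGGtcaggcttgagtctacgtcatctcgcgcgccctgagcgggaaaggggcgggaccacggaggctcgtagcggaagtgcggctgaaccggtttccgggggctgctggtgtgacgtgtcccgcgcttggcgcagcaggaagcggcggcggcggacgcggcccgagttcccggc

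Srp54a, chr12:55080246-55080545, plus strand: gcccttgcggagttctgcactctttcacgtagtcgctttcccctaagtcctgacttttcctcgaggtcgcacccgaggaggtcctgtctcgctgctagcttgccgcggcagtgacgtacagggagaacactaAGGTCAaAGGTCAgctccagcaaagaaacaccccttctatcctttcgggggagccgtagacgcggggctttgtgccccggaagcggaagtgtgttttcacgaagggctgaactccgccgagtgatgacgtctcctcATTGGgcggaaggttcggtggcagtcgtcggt

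Both strands were searched, and overlapping matches were counted. AGGTCA stood in 2 of the 7 promoters, those of *Srp9* and *Srp54a*, against 16.3% of 32851 promoters. In *Srp54a* it stood as a direct repeat with a spacer of 1 base (AGGTCA, any base, AGGTCA), a form held by 0.0396% of all promoters and looked for only after these letters were seen. The promoter of *Srp54c* also held AGGTCA at 2 places, in 1 such repeat, and that of *Srp54b* held none. The direct repeat with a spacer of 4 bases (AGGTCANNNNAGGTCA), the usual thyroid hormone element, was in 0 of 7 and in 0.0152% of all. The ER stress element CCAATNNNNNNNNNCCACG was in 0 of 7 and in 0.119% of all, and TGACGTGG, an element of the unfolded protein response, in 0 of 7 and in 0.676% of all. CCAAT was in 3 of 7 (37.4% of all) and GGGCGG, the GC box, in 5 of 7 (35.7% of all). The *Srpr* promoter was the richest of the 7 in G and C, with 68.0% against a median of 52.7% over all promoters. These are matches of letters in a fixed window, and they carry nothing about binding.

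*Srpr* encodes the receptor subunit that meets SRP at the membrane. Its highest row (uc009osy.1) stood at 31.2 ± 2.18 RPKM in *Dio3+/+* hearts and 33.7 ± 1.35 in *Dio3-/-* hearts. The SD ranges overlapped, and the log2 fold change of 0.11 (SE 0.058, 95% interval -0.02 to 0.24) did not pass (limma adjusted p = 0.352). The other row (uc009osz.1) was lower, at 9.85 ± 0.296 RPKM in *Dio3+/+* and 13.0 ± 0.391 in *Dio3-/-*. There the ranges stood apart, and the row rose by 0.39 on the log2 scale (SE 0.047, 95% interval 0.28 to 0.49, limma adjusted p = 0.00501), a ratio of 1.32. It was the only one of the 16 rows to pass, and it passed in all 8 alternative fits that include it, with adjusted p between 0.00385 and 0.0178. This is also the row whose fold change the study listed for *Srpr*, so its passing here is not independent of that listing. Counted by any row, 1 of the 10 genes passed, against 2.59% of all genes.

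The lower *Srpr* row came to 31.6% of the higher in *Dio3+/+* hearts and to 38.7% in *Dio3-/-* hearts. Its log2 fold change exceeded that of the higher row by 0.28. Among 8171 genes with at least 2 tested rows, 105 (1.29%) had a gap of that size or more, and the median of the largest gap was 0.02. In the other 5 genes here with a second row the gap was at most 0.05. A test of the difference between the rows needs values per heart and was not run. The table names each row by a transcript identifier without its exons, and which part of the gene the lower row covers was not determined.

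**Figure D2:**
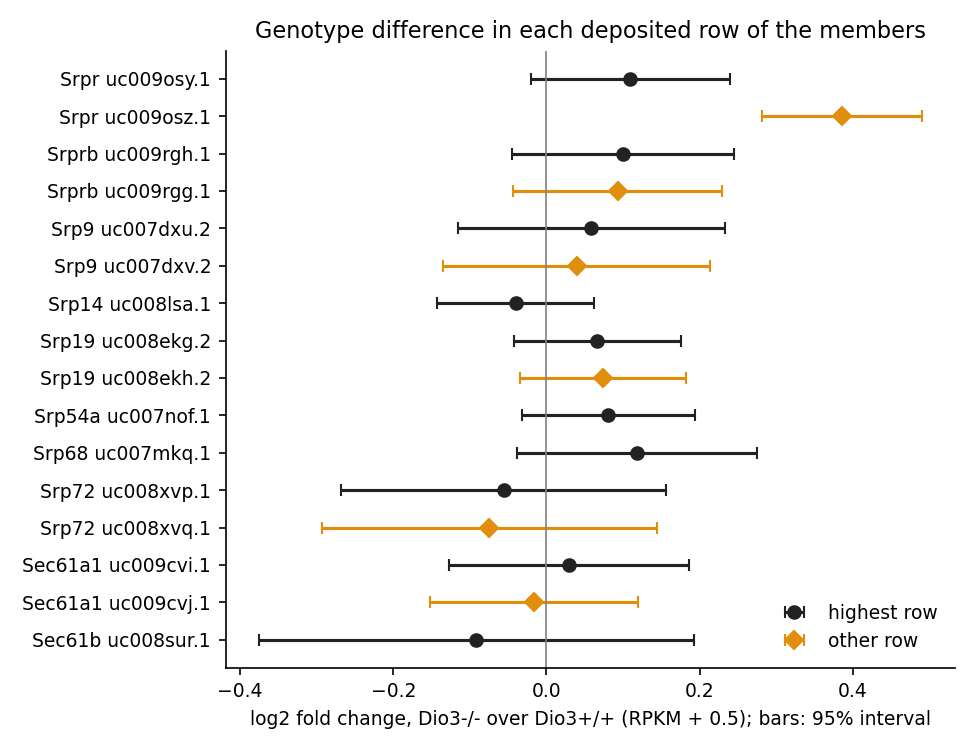
log2 fold change (*Dio3-/-* over *Dio3+/+*, on RPKM + 0.5) of each of the 16 rows of the 10 genes, with 95% intervals. The interval of the lower *Srpr* row, 0.28 to 0.49, lies above 0, and the other intervals span 0.

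The neighbours of *Srpr* were examined because reads of overlapping genes cannot be told apart without strand. *Foxred1*, which encodes a mitochondrial factor for respiratory complex I, lies head to head with *Srpr* on the opposite strand. In RefSeq these genes do not overlap and stand 31 bases apart, and their promoter windows share 247 bases. The highest row of *Foxred1* stood at 12.3 ± 0.739 RPKM in *Dio3+/+* and 14.6 ± 0.586 in *Dio3-/-* hearts. The log2 fold change of *Foxred1*, 0.24, did not pass (limma adjusted p = 0.0595). It passed (adjusted p = 0.0486) in 1 of 9 alternatives, when rows with an average of 5 RPKM or less were left out, and the adjusted p reached 0.155 in the others. All 6 rows of *Foxred1* had log2 fold changes between 0.16 and 0.24 with intervals above 0, and 0 passed after adjustment. They belong to 1 gene in the same hearts and are not separate evidence. *Fam118b*, at the other end of *Srpr* and overlapping it on the opposite strand, had 4 rows between -0.01 and 0.03 (limma adjusted p from 0.914 to 0.989). Of the 4 *Srpr* transcripts in GENCODE M21, 1 overlaps *Foxred1* and also *Tirap*, and 2 overlap *Fam118b*. The rows of *Tirap* were not examined. The part of *Foxred1* reads in the lower *Srpr* row was not tested.

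**Figure D3:**
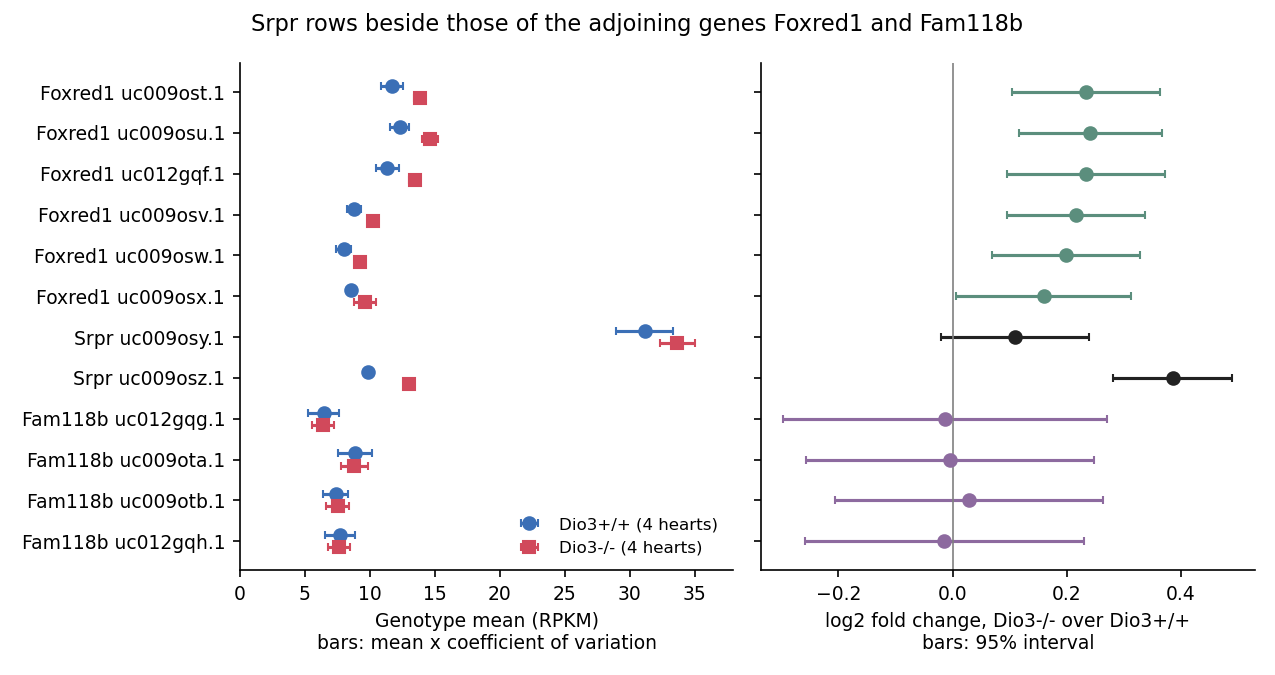
Mean RPKM with 1 SD (left) and log2 fold change with 95% interval (right) for each row of *Foxred1*, *Srpr* and *Fam118b*, 4 hearts a genotype. The intervals of the 6 *Foxred1* rows and of the lower *Srpr* row lie above 0. The higher *Srpr* row also has a log2 fold change above 0, but its interval spans 0. The log2 fold changes of the *Fam118b* rows lie between -0.01 and 0.03.

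*Srprb* encodes the membrane-bound GTPase that anchors the receptor. It stood at 20.0 ± 1.60 RPKM in *Dio3+/+* and 21.5 ± 1.08 in *Dio3-/-* hearts, the lowest level of the 10 genes in both. The log2 fold change was 0.10 (SE 0.065, 95% interval -0.05 to 0.24, limma adjusted p = 0.454), and its second row gave 0.09. Per length and by the highest row of each, *Srpr* was 1.56 times *Srprb* in *Dio3+/+* hearts and 1.57 times in *Dio3-/-* hearts. This ratio differed little between the genotypes, and the lower *Srpr* row was not used in it.

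The 6 SRP subunits lay within a 2.00-fold range per length in *Dio3+/+* hearts, with SRP54 counted by *Srp54a* alone. The copies *Srp54b* and *Srp54c* stood above *Srp54a* and were left out of that range, so it does not show balanced levels of the subunits. *Srp54a*, the highest of the 6, stood at 52.0 ± 3.12 RPKM in *Dio3+/+* and 55.0 ± 1.10 in *Dio3-/-* hearts, with a log2 fold change of 0.08 (limma adjusted p = 0.436). Its near-identical copies read alike: *Srp54b* had a log2 fold change of 0.08 from 64.1 ± 3.85 RPKM, and *Srp54c* 0.09 from 73.3 ± 4.40 RPKM. How reads were divided among these 3 copies was not tested.

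*Srp9* and *Srp14* form the domain of SRP that slows elongation. *Srp9* stood at 28.7 ± 2.87 RPKM in *Dio3+/+* and 29.9 ± 2.09 in *Dio3-/-* hearts, and the log2 fold change was 0.06 (limma adjusted p = 0.741). *Srp14* stood at 38.4 ± 0.384 and 37.4 ± 1.87 RPKM, with a log2 fold change of -0.04 (adjusted p = 0.693). Its CV of 0.01 in *Dio3+/+* hearts was the smallest of the 10 genes, and even so the SD ranges overlapped.

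*Srp19* encodes the subunit that assembles onto SRP RNA ahead of SRP54. Its highest row stood at 32.7 ± 1.63 RPKM in *Dio3+/+* and 34.2 ± 1.03 in *Dio3-/-* hearts, and the log2 fold change was 0.07 in both of its rows (limma adjusted p = 0.513 for the highest). *Srp68* and *Srp72* encode a heterodimer of the particle. *Srp68* stood at 26.0 ± 1.82 and 28.3 ± 2.26 RPKM, and its log2 fold change of 0.12 (95% interval -0.04 to 0.27, adjusted p = 0.412) was the highest among the 10 highest rows. *Srp72* stood at 29.6 ± 4.44 and 28.5 ± 1.14 RPKM, with a log2 fold change of -0.06 (adjusted p = 0.806), with a CV of 0.15 in *Dio3+/+* and 0.04 in *Dio3-/-* hearts. The *Srp68* and *Srp72* estimates lay on opposite sides of 0 with overlapping intervals, and their difference was not tested.

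*Sec61a1* encodes the channel itself, and *Sec61b* a small subunit beside it. *Sec61a1* stood at 70.1 ± 4.90 RPKM in *Dio3+/+* and 71.5 ± 5.72 in *Dio3-/-* hearts, and the log2 fold change was 0.03 (limma adjusted p = 0.866), which became -0.0085 when the median log2 ratio of all rows was set to 0. Its second row lay on the other side of 0, at -0.02. *Sec61b* stood at 45.3 ± 8.61 and 42.5 ± 4.25 RPKM, a log2 fold change of -0.09 with the widest interval of the 10 (-0.38 to 0.19, adjusted p = 0.753). Its CV of 0.19 in *Dio3+/+* hearts was the largest of the 10. *Sec61a2*, the paralog of *Sec61a1*, stood at 12.4 ± 1.49 and 13.4 ± 0.403 RPKM (log2 fold change 0.11, adjusted p = 0.517), so that *Sec61a1* was 5.63 times *Sec61a2* per length in *Dio3+/+* and 5.32 times in *Dio3-/-* hearts.

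By level in *Dio3+/+* hearts the order ran *Sec61a1*, *Srp54a*, *Sec61b*, *Srp14*, *Srp19*, *Srpr*, *Srp72*, *Srp9*, *Srp68*, *Srprb*. Taking mean ± SD, *Sec61a1* stood clear of *Srp54a*, *Srp14* of *Srp19*, and *Srp68* of *Srprb*. The other neighbours in the order overlapped. In *Dio3-/-* hearts only *Srp9* and *Srp72* changed places, and their ranges overlapped. There *Sec61a1* stood clear of *Srp54a*, *Srp54a* of *Sec61b*, *Srp14* of *Srp19*, *Srpr* of *Srp9*, and *Srp68* of *Srprb*. These SD ranges hold the spread between hearts only. They do not cover reads that may be left out from the shared windows of *Srp54a*, *Srp9*, *Sec61b* and *Srpr*, so the places of these genes in the order are uncertain. All 10 genes lay above the median level of the genes tested (9.52 RPKM), with a median average of 32.9 RPKM. Their median CV was 0.07 in *Dio3+/+* and 0.05 in *Dio3-/-* hearts, against 0.09 and 0.06 for all genes. The CV was lower in *Dio3-/-* than in *Dio3+/+* in 7 genes and higher in 3. Over all 14657 genes it was lower in 9585 and higher in 3996.

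**Figure D4:**
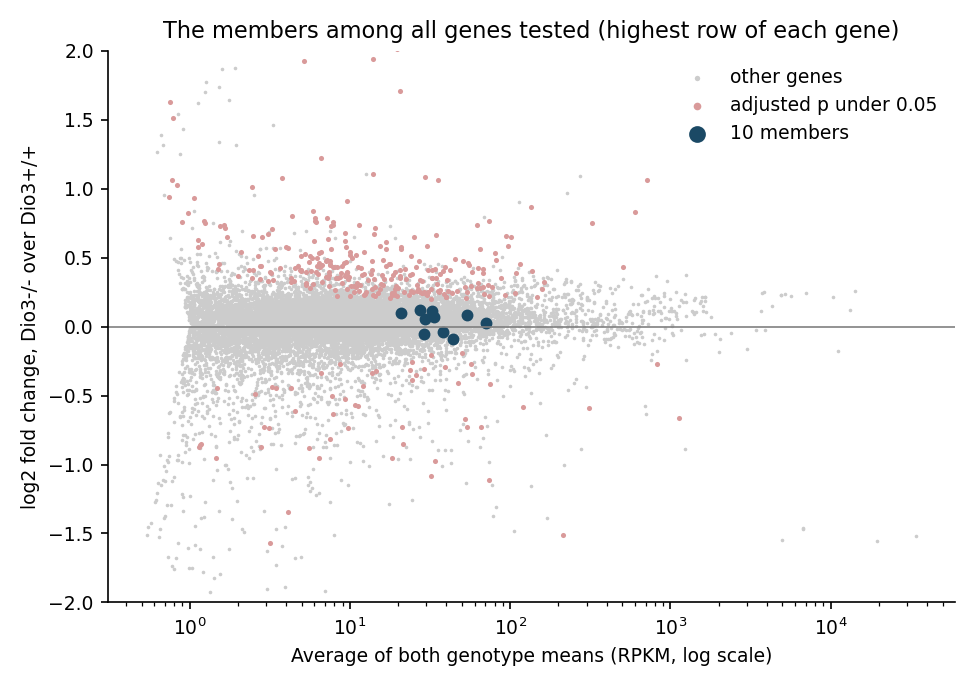
log2 fold change against the average of both genotype means (log axis) for the highest row of each of 14657 genes, with the 10 genes marked. The marked points lie between -0.09 and 0.12, and 23 genes beyond the plotted limit of 2 on the log2 scale, above or below 0, are not drawn.

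Of 81 other genes of the pathway, in 7 lists, 80 were tested and 0 passed by the highest row (limma), against 2.29% of all genes. At an unadjusted p of 0.05, 11 passed by limma (19.7% of all genes) and 9 with unmoderated variances (16.3% of all genes). The log2 fold change was above 0 in 52 of the 80 and below 0 in 27, with 63.3% of all genes above 0. The 12 other SRP, receptor and translocon genes had a median log2 fold change of 0.01. Among them *Sec61g*, the third Sec61 subunit, had the lowest value, -0.36 (SE 0.091, adjusted p = 0.0729), from 56.8 ± 7.95 RPKM in *Dio3+/+* to 44.1 ± 2.20 in *Dio3-/-* hearts. Its SD ranges did not overlap, whereas those of *Sec61a1* and *Sec61b* did, and overlap of SD ranges is not a test. *Sec61g* passed in none of the 9 alternative fits (adjusted p from 0.0572 by limma to 0.257 with unmoderated variances). The median was 0.06 for 5 signal peptidase genes (*Sec11c* 0.18, *Spcs1* 0.16), which cut off the signal sequence, and -0.01 for 12 oligosaccharyltransferase genes (*Stt3b* 0.10, *Dad1* 0.08), which add N-glycans. It was 0.10 for 17 of 18 genes of tail-anchored and other membrane insertion, routes that can bypass SRP, with *Emc7* (0.19, adjusted p = 0.105) and *Get4* (0.15, adjusted p = 0.124) named for the lowest p. The 5 nascent chain and ribosome-binding factors had a median of 0.04 (*Ktn1* 0.19, adjusted p = 0.113, and *Ckap4* 0.04). The 15 ER chaperones and folding enzymes had a median of -0.0025 (*Ppib* 0.13, *Dnajb11* 0.11), and the 14 genes of the unfolded protein response and ER degradation one of 0.04 (*Vcp* 0.11, *Atf6* 0.09). The 7 medians lay between -0.01 and 0.10, around the 0.04 of all genes.

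**Figure D5:**
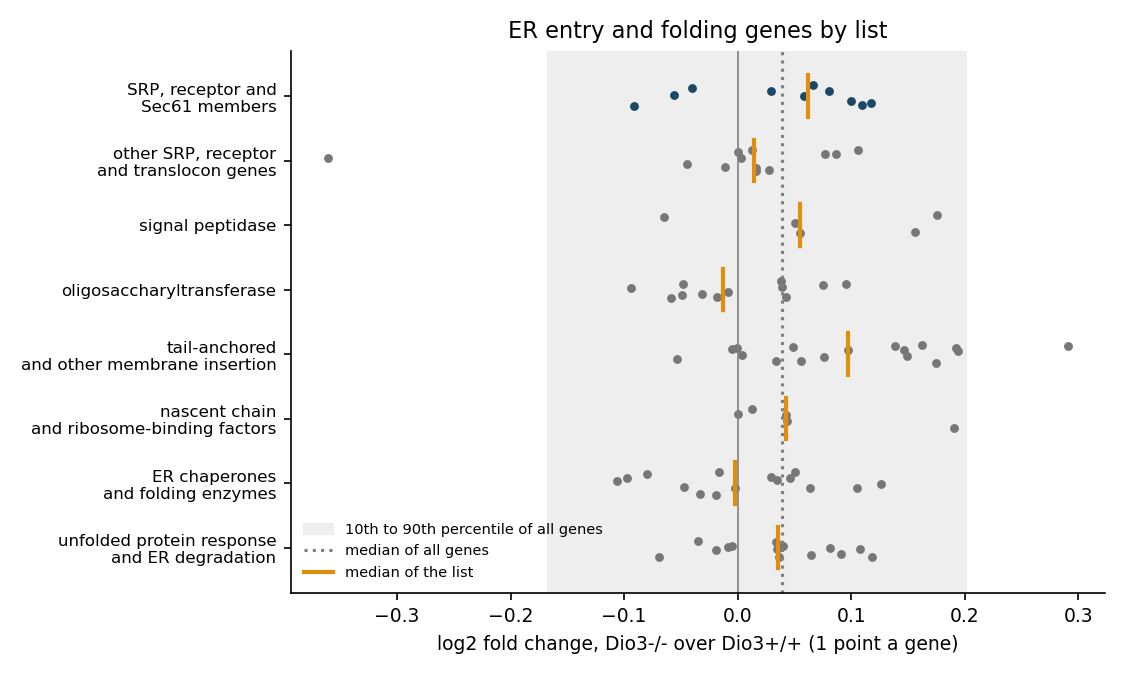
log2 fold change of each gene by list (1 point a gene, highest row), with the list median, the median of all genes (0.04) and the range from the 10th to the 90th percentile of all genes (-0.17 to 0.20). The list medians lie inside that range, and *Sec61g* at -0.36 and *Emc9* (1.38 RPKM in *Dio3+/+* hearts) at 0.29 lie outside it, neither passing the test.

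Marker genes of cell types were read in the same table. By the highest row 2.29% of all genes passed. All 8 cardiomyocyte markers were present, and their summed level was 11705 RPKM in *Dio3+/+* and 13949 in *Dio3-/-* hearts. Their log2 fold change was above 0 in 7 and below 0 in 1, *Myh7*. It stood at 873 RPKM in *Dio3+/+* and 825 in *Dio3-/-* hearts. Of the 8, 2 passed (*Myh6* and *Ryr2*), and both are also among the genes that the study listed from these same hearts. The 9 tested of 10 hepatocyte markers, none at 0, had 0 passing and a sum of 15.4 against 105 RPKM over the 10, and CVs of 0.50 to 1.48 in *Dio3+/+* and 0.79 to 1.26 in *Dio3-/-* hearts. The 5 erythroid markers in the table summed to 39541 RPKM in *Dio3+/+* and 13683 in *Dio3-/-* hearts, with 1 passing. Their part in the values of the 10 genes was not tested, and in whole hearts fewer cells of a type and less RNA per cell cannot be told apart. *Dio3* itself was at 0.35 RPKM (CV 1.23) in *Dio3+/+* and 0.13 (CV 0.76) in *Dio3-/-* hearts, below the level of 1 RPKM required for a test, so it does not check the labels.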

How the data were processed

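RNA from 8 single fetal hearts was sequenced as single-end reads of 75 bases after ribosomal depletion. The submitters' processing notes name FastQC and NovoAlign 2.08. Per the study's methods only uniquely mapping reads were kept, and libraries were scaled to the smallest of them. The genome build of the alignment is not given in the sources used here. The authors deposited a table with 51414 transcript rows that holds, for each genotype, a mean in RPKM (a reading from the 1 RPKM filter of the study, since the header names no unit) and a coefficient of variation, which is a ratio of SD to mean rounded to 2 decimals. Its columns of fold changes and q values are the authors' own comparison and were not used.

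SDs were taken as mean times coefficient of variation and carried to the log2(RPKM + 0.5) scale by the delta method. Variances were pooled over both genotypes (6 residual degrees of freedom) and moderated with a mean-variance trend in limma 3.58.1 (R 4.3.3), two-sided, with Benjamini-Hochberg adjustment over 32703 rows (14657 genes) in which either genotype's mean exceeded 1 RPKM. A gene was called when its highest row had an adjusted p below 0.05. The procedure was also run on simulated data, whose outcome is not given here and is not used in support of any result. Welch's test from the same summaries was an alternative. Nothing says that the 4 hearts of a genotype came from separate litters, so p-values measure the spread between these hearts. Sequence windows, promoters and motifs were read from GENCODE M21 (GRCm38) and RefSeq (GRCm38.p6) with Python 3.11.15.

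The genes and lists were chosen with earlier results of these data known. Named are the 10 genes, every called gene of a list (up to 5) or otherwise the 2 with the lowest p, the *Srp54* copies, *Sec61a2* and the nearest neighbours of *Srpr*.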

Additional observations from a re-analysis of the deposited data

How the results depend on the processing

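Pseudocounts of 0.1 and 1, no filter, an average above 5 RPKM, no trend, 1 row per gene, Welch's test, centring on the median log2 ratio (0.04) and raised coefficients of variation gave 90 values for the 10 genes. Of these, 0 passed, the lowest adjusted p was 0.322, and 1 changed sign: *Sec61a1*, at -0.0085 when centred. Calling a gene by any row gave 1 of the 10 genes (*Srpr*) and 1 of the 80 pathway genes (*Naca*) in place of 0. By any row 379 of all 14657 genes passed (2.59%). By the highest row the count over all genes was 336. It was 197 with no filter, 27 by Welch's test, 180 when centred and 187 with raised coefficients of variation. The cause was not tested. Of the 336 genes 280 were higher in *Dio3-/-* hearts (83.3%), and when centred 129 of 180 (71.7%). *Foxred1* passed in 1 of 9 alternatives, with an average above 5 RPKM (adjusted p from 0.0486 to 0.155 over the 9). No paired analysis was possible because the table holds genotype means without values per heart, and no heart could be left out for the same reason. The table holds no counts, and the 2-decimal coefficients of variation limit the precision of each SD.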

Other observations

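*Naca* encodes a subunit of the nascent polypeptide-associated complex, which meets chains at the ribosome before SRP does. It had 1 row that passed below a higher row that did not. The lower row (uc007hlc.2) stood at 67.4 RPKM (CV 0.02) in *Dio3+/+* and 78.3 (CV 0.04) in *Dio3-/-* hearts, and its log2 fold change was 0.21 (SE 0.044, limma adjusted p = 0.0432). It did not pass when the median log2 ratio of all rows was set to 0 (adjusted p = 0.0941) or with unmoderated variances (adjusted p = 0.122), whereas the lower *Srpr* row passed in both. The higher row (uc007hlb.2) stood at 218 RPKM (CV 0.10) and 225 (CV 0.06), a log2 fold change of 0.04 (adjusted p = 0.819). Of the 379 genes called by any row, 43 were called by a lower row and not by the highest.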
